A study of Mus musculus with 6 samples.

Results

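The genes described here are the clustered histone genes of the mouse, taken as every gene whose symbol on the array begins with Hist1h, Hist2h, Hist3h or Hist4h. The array names 27376 genes, and 38 of them met this rule, with 45 probes in all. Each gene was read from 1 probe, the brightest by its mean over the 6 arrays. By their symbols, 6 of the 38 are of the linker histone H1, 12 of H2A, 11 of H2B, 3 of H3 and 6 of H4. Hist3h2bb-ps among the H2B members is a pseudogene, and Hist1h2al among the H2A members matches the RefSeq entry H2af-ps2, also named as a pseudogene. The members lie on chromosome 13 (27 genes), chromosome 3 (6), chromosome 11 (3) and chromosome 6 (1) of the mm9 build, and the array gives no position for the last. The probe of Hist1h2al, at chr13:51295494-51295553, lies apart from the other members of that chromosome.

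Naive CD4+ T cells (CD25-, Foxp3gfp-, CD62L high) were sorted from the spleens of C57BL/6 mice 6 weeks old and polarized into induced regulatory T (iTreg) cells in culture. The 3 cKO mice carried floxed miR-31 alleles and the CD4Cre transgene, in which Cre is expressed under CD4 control, so that the microRNA miR-31 is deleted in T cells. The 3 control mice are labelled as age-matched controls and, in the study's methods, were miR-31 fl/fl without Cre, so the floxed alleles were shared by both groups and the transgene was not. All cultures received plate-bound anti-CD3 (5 μg/ml), anti-CD28 (2 μg/ml), TGF-β1 (5 ng/ml) and IL-2 (40 ng/ml by the labels) for 4 days. RNA of each mouse's culture (0.5 μg) was labelled with Cy3 and read on its own one-colour Agilent array of 60-base probes. The comparison asks which transcripts differ when iTreg cells form without miR-31.

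Histones are the proteins around which nuclear DNA is wound. H2A, H2B, H3 and H4 form the core of the nucleosome, and H1 binds the DNA between cores. Most clustered genes are short, lack introns, and are transcribed while DNA is copied in S phase, and their mRNA ends in a stem-loop instead of a poly(A) tail. Some of them also give longer, polyadenylated transcripts that are known from cells that have stopped dividing. The labelling kit starts from an oligo(dT) primer, so how fully stem-loop mRNAs entered these measurements was not tested.

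The probes of 3 genes with low log2 fold changes in cKO cells, Hist3h2a, Hist2h2aa1 and Hist1h1e, lie at the coding sequence and are shown to make clear what was read there, with all letters in lower case. That of Hist3h2a lies on the plus strand at chr11:58768387-58768446, that of Hist2h2aa1 on the plus strand at chr3:96049502-96049561 and that of Hist1h1e on the minus strand at chr13:23713707-23713766, all in mm9.
Hist3h2a: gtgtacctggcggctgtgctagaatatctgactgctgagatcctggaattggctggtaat
Hist2h2aa1: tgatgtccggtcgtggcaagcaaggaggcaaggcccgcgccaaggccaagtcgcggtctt
Hist1h1e: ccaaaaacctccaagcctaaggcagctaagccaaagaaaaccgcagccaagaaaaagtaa

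The probe of Hist1h3a, on the minus strand at chr13:23853756-23853815 (mm9), runs through the stem-loop that ends the mRNA. A stretch of it is shown because this element separates S phase histone mRNAs from polyadenylated ones, with the 16 bases of the stem and loop in capitals. It was the only one of the array's 41174 probes to hold these 16 bases without a mismatch.
Hist1h3a: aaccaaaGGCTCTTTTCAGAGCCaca

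Clustered histone genes are close copies of each other, and their probes share sequence. Among the 703 pairs of the members' probes, 10 pairs, all within a histone type, had at least 20 consecutive bases in common, and 11 members were in such a pair. The closest were Hist1h2bk and Hist1h2bm, whose probes shared 52 consecutive bases and differed at 2 positions, which are in capitals.
Hist1h2bk: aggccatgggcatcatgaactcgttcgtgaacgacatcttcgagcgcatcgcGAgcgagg
Hist1h2bm: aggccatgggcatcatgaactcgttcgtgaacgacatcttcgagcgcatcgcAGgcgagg
The probes of Hist1h4d and Hist1h4f shared 50 bases, and those of Hist1h2aa and Hist1h2af shared 44. Signals of such members cannot be assigned to 1 gene with certainty, and their values are not independent of each other.

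A level is given throughout as the log2 of the probe's processed signal minus the 75th percentile of its array, so that a difference of 1 is a factor of 2. Levels of different probes are not read as amounts of their transcripts, since probes differ in how well they bind. Each array had between 49.3% and 57.7% of its spots well above background and no saturated spot. Only probes that 3 or more arrays read as well above background were tested, 22281 in all. Of the 38 members, 34 were tested, none of them through the arrays of 1 group alone. The 4 that were not are Hist1h2ac, Hist1h2al and Hist1h2be, which were above background on no array, and Hist1h2bq, which was above it on 1. Hist1h1t passed with 4 arrays and Hist1h2bp with 5.

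None of the 34 tested members passed an adjusted p of 0.05 (limma, Benjamini-Hochberg over all tested probes), and 0.13% of all tested probes did. At an unadjusted p under 0.05, 16 members were lower in cKO iTreg cells and 2 were higher, in an array on which 11.3% of tested probes were lower and 11.7% higher at that threshold. The log2 fold change (cKO over control) was below 0 for 28 of the 34, compared with 54.4% of all tested probes. The median over the members was -0.32 and that over all tested probes was -0.04. The 3 cKO arrays all lay below the 3 control arrays for 17 members, a pattern seen in 20.3% of tested probes, and all above them for 3, compared with 16.2%. Hist2h2aa1 and Hist3h2a passed the adjusted threshold with trend and robust fitting and 7 members with array weights, while the methods' t-test passed 0. Over the whole array, 98, 1824 and 0 probes passed it under these settings in that order, in place of 29. The 16 lower members became 4 with the slide as a term and 5 to 8 without any 1 of the control arrays. Lower probes among all those tested fell as well at that unadjusted threshold, from 2511 to 599 with the slide as a term. They numbered 1157 to 1818 without any 1 of the control arrays. With 3 arrays against 3, an exact permutation test of 1 gene cannot give a 2-sided p under 0.1. RNA was taken from whole cultures, so fewer cells making a transcript and less of it per cell cannot be told apart.

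**Figure D1:**
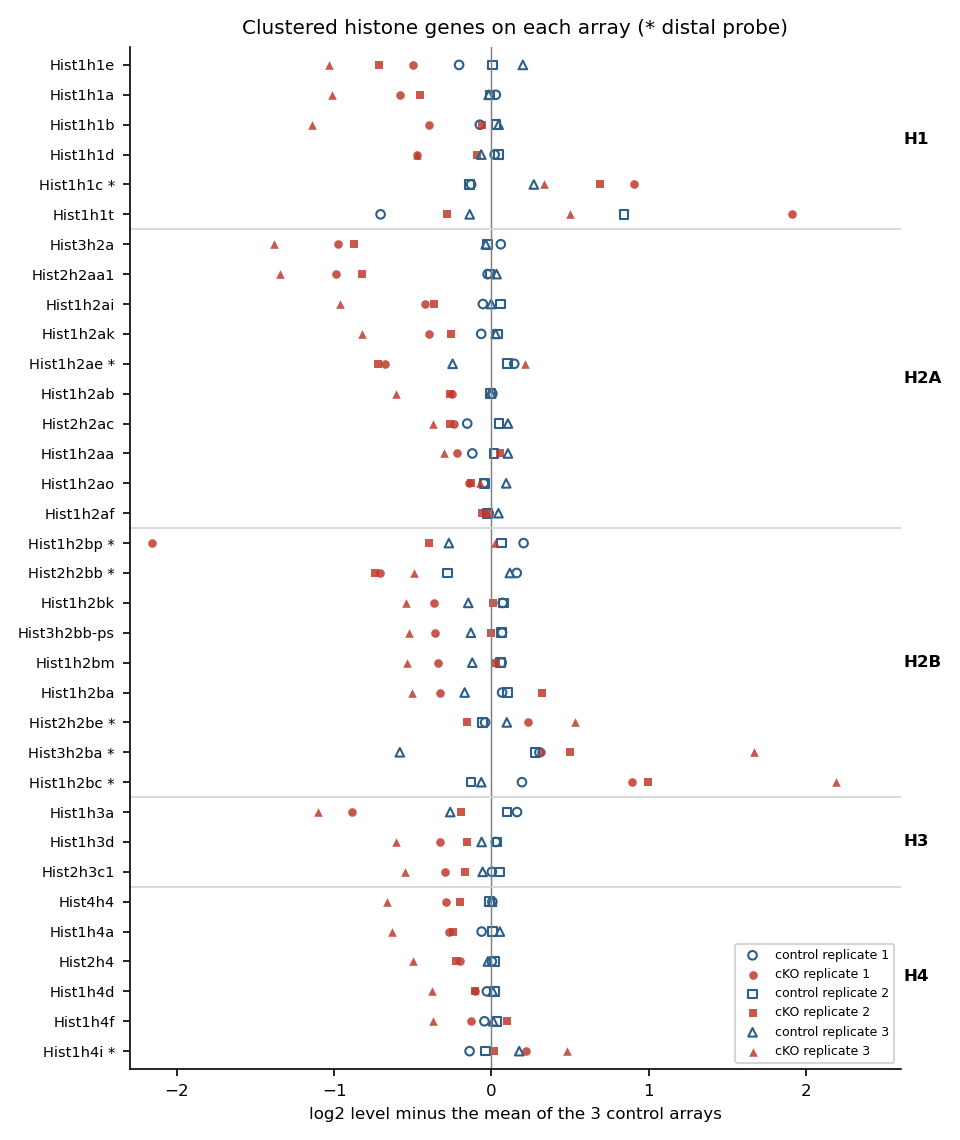
Log2 level of each of the 34 tested clustered histone genes on each array, minus the mean of its 3 control arrays (horizontal axis), grouped by histone type. Open blue symbols are control arrays and filled red symbols cKO arrays, and an asterisk marks members read by a distal probe; most members without an asterisk have their red symbols to the left of 0, with cKO replicate 3 farthest left in 22 of 34 members.

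All 10 tested H2A genes had a log2 fold change below 0 by their brightest probe (54.4% of all tested probes). The median was -0.38. At an unadjusted p under 0.05, 6 were lower, compared with 11.3% of all tested probes, and none passed an adjusted p of 0.05. The H2A gene farthest from 0 was Hist3h2a, in the small chromosome 11 cluster. Its level was 6.50, 6.59 and 6.09 in the 3 cKO cultures and 7.53, 7.44 and 7.43 in the controls. The highest cKO value lay 0.84 below the lowest control value, and the log2 fold change was -1.08 (SE 0.15), with a signal 2.11 times as high in controls and an adjusted p of 0.068 by limma.

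Hist2h2aa1, an H2A gene of the chromosome 3 cluster with a near-identical neighbouring copy, came next. It measured 2.92, 3.09 and 2.56 in cKO cells and 3.88, 3.90 and 3.94 in controls. The groups did not overlap, and the log2 fold change was -1.05 (SE 0.15, limma adjusted p = 0.068). Its signal was 2.07 times as high in controls. Among the others, Hist1h2ai and Hist1h2ak, whose probes shared 26 bases, had log2 fold changes of -0.58 and -0.49.

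Some H2A genes differed little. The brightest H2A probes were those of Hist2h2ac, Hist1h2aa (known as a testis H2A) and Hist1h2af. Hist2h2ac had levels of 8.67, 8.64 and 8.53 in cKO cells and 8.75, 8.95 and 9.01 in controls, which did not overlap, and a log2 fold change of -0.29 (SE 0.11). Its other probe gave -0.19 (SE 0.10). For Hist1h2aa the groups overlapped (-0.15, SE 0.13). Hist1h2af was nearly level by its brightest probe (-0.03, SE 0.09), while its other probe, nearer the start of the transcript, gave -0.47 (SE 0.16).

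H1 genes divided. Hist1h1e, which encodes linker histone H1.4, measured 5.02, 4.79 and 4.48 in cKO cells and 5.31, 5.52 and 5.71 in controls. The groups did not overlap, and the log2 fold change was -0.75 (SE 0.18, limma adjusted p = 0.13). Hist1h1a gave -0.68 (SE 0.16) and Hist1h1d -0.35 (SE 0.14), both with separate groups. Hist1h1b, which encodes H1.5, gave -0.53 (SE 0.27), and its value in cKO replicate 2 (4.91) was level with control replicate 1 (4.90). The median of the 6 H1 genes was -0.44.

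Hist1h1c, which encodes H1.2 and is known to give polyadenylated transcripts, went the other way. Its level was 0.27, 0.05 and -0.30 in cKO cells and -0.77, -0.78 and -0.37 in controls. All cKO values were above all control values, with cKO replicate 3 close to control replicate 3, and the log2 fold change was 0.64 (SE 0.19, limma adjusted p = 0.16). Hist1h1t, the testis H1, had the highest log2 fold change of the H1 genes (0.71), but its SE was 0.64, its groups overlapped and it was above background on 2 arrays of each group.

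H2B genes held both directions, 6 of 9 tested members below 0 (54.4% of all tested probes), with a median of -0.28. Hist1h2bk, Hist1h2bm and the pseudogene Hist3h2bb-ps, whose probes share long runs, gave -0.30 (SE 0.17), -0.28 (SE 0.17) and -0.30 (SE 0.16), and in each the groups overlapped. The other probe of Hist1h2bk gave -0.40 (SE 0.16), also with overlapping groups. Hist2h2bb gave -0.65 (SE 0.16), with all cKO values below all control values. The lowest H2B value, -0.84 for Hist1h2bp, had an SE of 0.56 and was -0.19 without cKO replicate 1.

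Hist1h2bc, an H2B gene with known polyadenylated transcripts, had the highest log2 fold change of the 34 tested members on this scaling. It measured -0.06, 0.04 and 1.23 in cKO cells and -0.76, -1.09 and -1.02 in controls. The groups did not overlap, cKO replicate 3 was the highest, and the log2 fold change was 1.36 (SE 0.35), a signal 2.57 times as high in cKO cells (limma adjusted p = 0.14). Hist3h2ba was also higher on every cKO array (0.83, SE 0.42), though its cKO replicate 1 (-0.68) was close to control replicates 1 (-0.69) and 2 (-0.72). Hist2h2be, like Hist1h2bc an H2B gene known for polyadenylated transcripts, gave 0.20 (SE 0.19) with overlapping groups.

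All 3 H3 genes were lower in cKO cells at an unadjusted p under 0.05, compared with 11.3% of all tested probes. Hist1h3a, read through its stem-loop, measured 0.45, 1.15 and 0.23 in cKO cells and 1.50, 1.44 and 1.08 in controls. Its cKO replicate 2 lay above control replicate 3, so the groups overlapped, with a log2 fold change of -0.73 (SE 0.26). Hist1h3d (-0.36, SE 0.14) and Hist2h3c1 (-0.34, SE 0.13) had separate groups. The limma adjusted p of the 3 lay between 0.19 and 0.20.

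H4 genes, which all encode the same protein, had a median of -0.25 over 6 members. Hist4h4, alone on chromosome 6, measured 5.26, 5.35 and 4.89 in cKO cells and 5.56, 5.54 and 5.55 in controls. The cKO values were all below the controls, at -0.38 (SE 0.14). Hist1h4a also gave -0.38 (SE 0.14) and Hist2h4 -0.31 (SE 0.12), both with separate groups. Hist1h4d gave -0.20 (SE 0.11) by its brightest probe and -0.37 (SE 0.14) by its other probe, and Hist1h4f gave -0.14 (SE 0.14). Hist1h4i was the only H4 gene above 0, at 0.24 (SE 0.16).

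Most members above 0 were read past the end of a short RefSeq gene or within a RefSeq gene longer than 1000 bases. Each probe was therefore placed against the length of the gene in RefSeq (33 members matched by accession and 5 by symbol). A probe is called a body probe here where it ended within a RefSeq gene of at most 1000 bases, and a distal probe otherwise, a division made after the values were seen and given without a test. The 26 members with body probes were all tested, and 25 had a log2 fold change below 0 (54.4% of all tested probes). Hist1h1t was the exception. The median of the 26 was -0.34. At an unadjusted p under 0.05, 15 of the 26 were lower, compared with 11.3% of all tested probes. Of the 12 members with distal probes, 8 were tested and 5 of these were above 0, with a median of 0.22. The 5 were Hist1h1c, Hist1h2bc, Hist2h2be, Hist3h2ba and Hist1h4i. The other 3 were Hist1h2ae (-0.40), Hist1h2bp and Hist2h2bb. Among these 8, the probes of Hist1h1c, Hist3h2ba, Hist1h4i, Hist1h2ae and Hist2h2bb ended past the RefSeq gene. Those of Hist1h2bc, Hist2h2be and Hist1h2bp ended within a RefSeq gene longer than 1000 bases.

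A single gene showed both. Besides its body probe, Hist3h2a had a distal probe that started 767 bases into the annotated transcript, past the 508 bases of the RefSeq gene. It gave 0.20 (SE 0.17) with overlapping groups, while the body probe, which started at base 200, gave -1.08. The distal probes of Hist1h1d and Hist4h4 were too dim to test.

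Body and distal probes differed in other ways. Distal probes had a G+C content of 35% to 45% and body probes of 40% to 73.3%. Over the whole array, tested probes of at most 45% G+C were below 0 in 55.6% of cases and the others in 49.9%. Among body probes of at most 45% G+C, 3 of 4 were below 0. The mean levels of the tested distal probes lay between -3.83 and 1.13, and the median of the body probes was 6.29. The only body probe with a mean level below 0, that of Hist1h1t (-3.86), was above 0 in log2 fold change, and the 2 with a mean level between 0 and 2, Hist1h1a and Hist1h3a, were below 0. The part of G+C content and brightness in the division was not tested beyond these counts.

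**Figure D2:**
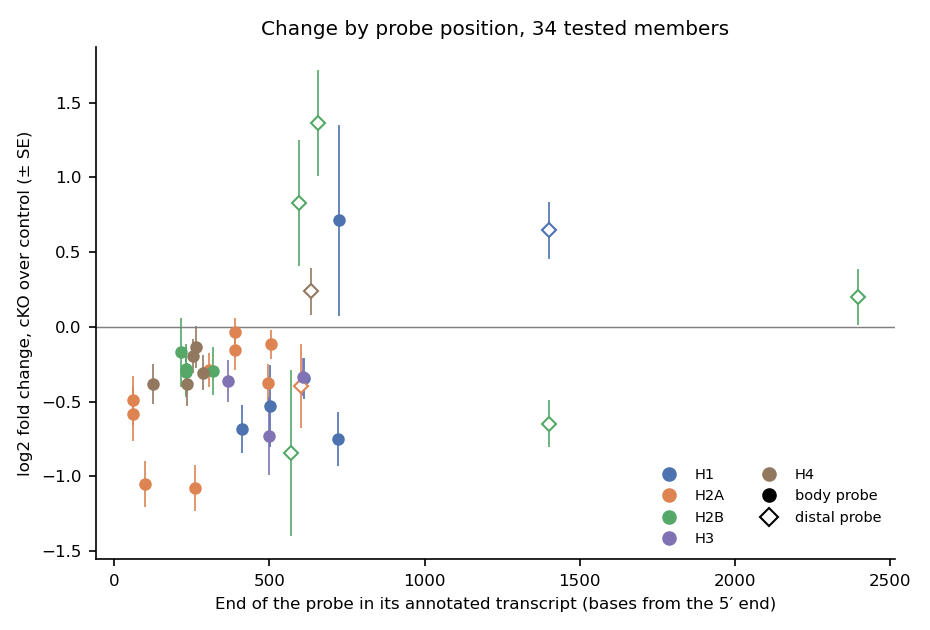
Log2 fold change (cKO over control, ± SE from limma) of the 34 tested members against the position at which the probe ends in its annotated transcript, in bases from the 5′ end; colours are histone types, filled circles body probes and open diamonds distal probes. Of the 26 circles, 25 lie below 0, and 5 of the 8 diamonds lie above it.

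Arrays of 1 group were not alike. With each gene set against its control mean, the median over the 26 body probes was -0.33, -0.18 and -0.55 on cKO replicates 1, 2 and 3, and between -0.01 and 0.03 on the controls. Every cKO median lay below every control median. For the distal probes the cKO medians were 0.23, -0.07 and 0.41 and the control medians 0.15, -0.05 and 0.02, which overlapped. Among the 34 members, cKO replicate 3 was the lowest of the 6 arrays for 22, and every one of these had a body probe. Without it, 28 members were still below 0 and their median was -0.23.

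All cKO arrays and control replicate 1 were on the same slide, and control replicates 2 and 3 on another. Within the first slide, 28 of 34 members were below 0 against control replicate 1 and the median was -0.36, with -0.37 for body and 0.31 for distal probes. Only 1 control array is left in that comparison. Control replicate 1 differed from the mean of the other 2 controls by a median of 0.004 over the members, but by 0.23 over distal probes, -0.01 over body probes, -0.15 over H1 genes and 0.11 over H2B genes. For distal probes this difference between controls was as large as the median log2 fold change of 0.22. Hist3h2a gave -1.14 and Hist2h2aa1 -1.03 within the slide.

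**Figure D3:**
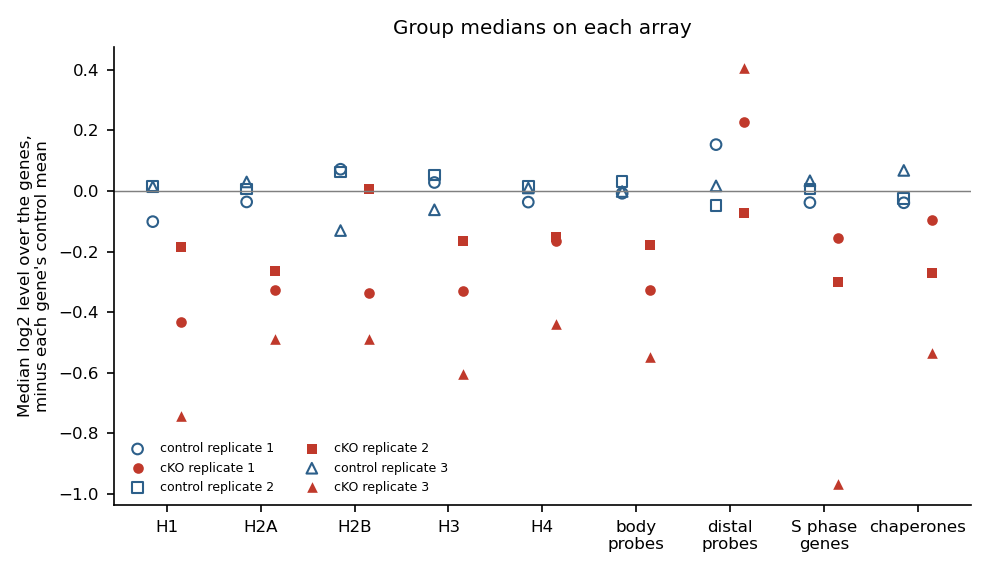
Median log2 level over the genes of each group on each array, after each gene's control mean was subtracted (vertical axis), for the 5 histone types, for members with body and distal probes, and for lists of S phase and histone chaperone genes. Open blue symbols are controls and filled red symbols cKO; cKO replicate 3 has the lowest median in every group but the distal probes, where it has the highest.

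The control regions upstream show what the members share in sequence. RefSeq promoter windows (GRCm38.p6, 250 bases before to 50 after the start) were found for 32 of the 38 members, and 3 motifs were searched on both strands, none of which contains another. The letters CCAAT, the core of the site of the factor NF-Y, were in 29 of the 32 (90.6%) and in 37.4% of all 32851 promoter windows. TATAAA was in 20 (62.5%, compared with 13.6%). The octamer ATTTGCAT, the site of POU factors such as Oct-1, was in 10 (31.2%, compared with 1.74%), which were 6 of 11 H2A and 4 of 8 H2B windows.

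Windows of 3 members with different values are shown, with the motifs in capitals on either strand. Hist3h2a had the lowest log2 fold change, at chr11:58954435-58954734 on the plus strand. Hist1h1c, a member read as higher in cKO cells, lies at chr13:23738557-23738856 on the plus strand. Hist2h2ac lies at chr3:96220831-96221130 on the minus strand and faces away from Hist2h2be, with 191 bases between both genes in RefSeq. From this shared stretch, Hist2h2ac gave -0.29 by a body probe and Hist2h2be 0.20 by a distal probe.
Hist3h2a: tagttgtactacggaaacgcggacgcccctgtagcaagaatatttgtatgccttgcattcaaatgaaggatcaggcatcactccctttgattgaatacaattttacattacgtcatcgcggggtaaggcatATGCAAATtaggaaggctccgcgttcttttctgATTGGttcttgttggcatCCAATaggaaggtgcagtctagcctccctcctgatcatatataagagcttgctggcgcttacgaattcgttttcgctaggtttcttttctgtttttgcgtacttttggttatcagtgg
Hist1h1c: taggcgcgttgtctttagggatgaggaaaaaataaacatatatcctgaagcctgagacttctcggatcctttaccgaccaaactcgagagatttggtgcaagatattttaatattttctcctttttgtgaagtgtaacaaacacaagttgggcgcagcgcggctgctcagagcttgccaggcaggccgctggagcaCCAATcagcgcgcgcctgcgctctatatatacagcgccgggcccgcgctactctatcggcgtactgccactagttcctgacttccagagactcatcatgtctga
Hist2h2ac: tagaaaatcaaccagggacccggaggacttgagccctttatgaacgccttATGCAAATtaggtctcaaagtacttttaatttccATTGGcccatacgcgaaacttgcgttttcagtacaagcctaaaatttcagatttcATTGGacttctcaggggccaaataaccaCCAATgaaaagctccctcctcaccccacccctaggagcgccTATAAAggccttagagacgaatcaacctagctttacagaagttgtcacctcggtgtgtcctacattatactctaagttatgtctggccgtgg
The Hist3h2a window held CCAAT 2 times and the octamer 1 time, the Hist1h1c window CCAAT 1 time and neither of the others, and the Hist2h2ac window CCAAT 3 times and the octamer and TATAAA 1 time each. Another pair facing away from each other, the testis genes Hist1h2aa and Hist1h2ba, had windows that overlapped by 220 bases. Their log2 fold changes were -0.15 and -0.17, both with overlapping groups. The probe of Hist1h2aa shares 44 bases with that of Hist1h2af, so its signal cannot be assigned to 1 gene with certainty. The windows of Hist1h2ao and Hist1h2bq overlapped by 267 bases. Hist1h2ao gave -0.12 (SE 0.10), by a probe that shares 28 bases with that of Hist1h2af. Hist1h2bq, above background on 1 array, was not tested.

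Genes outside the clusters encode further histones, many of them made outside S phase too, with mRNAs that mostly lack the stem-loop. Of 14 listed histone genes outside the clusters 12 were tested, and their median was -0.10. These include the dim H1foo (mean level -2.53 in cKO cells, -2.55 in controls) and H2afb1 (-3.64 and -3.78). At an unadjusted p under 0.05, 3 of the 12 were lower and none higher. At that threshold 11.3% of all tested probes were lower and 11.7% higher. H2afx, whose protein is phosphorylated at DNA breaks and which also makes a stem-loop mRNA, measured 4.65, 4.65 and 3.76 in cKO cells and 5.12, 5.16 and 5.46 in controls. Its groups were apart, at -0.89 (SE 0.27). H2afz, which encodes H2A.Z, gave -0.40 (SE 0.16) and H3f3b, which encodes H3.3, -0.33 (SE 0.10), both with separate groups. H3f3a, the other H3.3 gene, gave -0.16 (SE 0.10) and Cenpa, the centromeric H3, -0.20 (SE 0.15).

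Factors that transcribe or process histone mRNA were described from a list of 26 genes, all tested. At an unadjusted p under 0.05, 4 were lower (Casp8ap2, Cstf2t, Myb and Nfya). A single gene was higher (Gapdh, listed as a part of the H2B coactivator complex). Of all tested probes, 11.3% were lower and 11.7% higher at that threshold. The median of the list was -0.24. Slbp, which binds the stem-loop, measured 4.42, 4.21 and 3.75 in cKO cells and 4.56, 4.51 and 4.55 in controls. The groups did not overlap, and the log2 fold change was -0.41 (SE 0.18, limma adjusted p = 0.23). Npat, the coactivator of histone gene transcription, gave -0.06 (SE 0.11), and Pou2f1, which encodes Oct-1, gave 0.00 (SE 0.09). Of the NF-Y subunits, Nfya gave -0.32, Nfyc -0.43 and Nfyb 0.29.

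Histone chaperones, which carry histones to DNA, had a log2 fold change below 0 in 19 of 21 tested genes (54.4% of all tested probes), with a median of -0.27. At an unadjusted p under 0.05, 4 were lower, compared with 11.3% of all tested probes. Chaf1b, a subunit of the assembly factor that follows the replication fork, gave -0.64 (SE 0.21), and Nap1l1, a carrier of H2A and H2B, gave -0.77 (SE 0.26). Hjurp, the Cenpa chaperone, gave -0.01 (SE 0.11).

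A list of 28 S phase genes, all tested, had log2 fold changes below 0 throughout (54.4% of all tested probes), with a median of -0.47. At an unadjusted p under 0.05, 7 were lower, compared with 11.3% of all tested probes. Rrm2, a subunit of ribonucleotide reductase, measured 3.07, 2.33 and 2.73 in cKO cells and 4.12, 3.86 and 3.90 in controls. Its groups were apart by 0.79, at -1.25 (SE 0.20, limma adjusted p = 0.074). Mcm5, a subunit of the replicative helicase, gave -0.81 (SE 0.31). Of the 28, 27 were lowest on cKO replicate 3. Without that array the median was -0.22, and that of the histone members was -0.23. None of the 4 related lists had a gene past an adjusted p of 0.05.

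**Figure D4:**
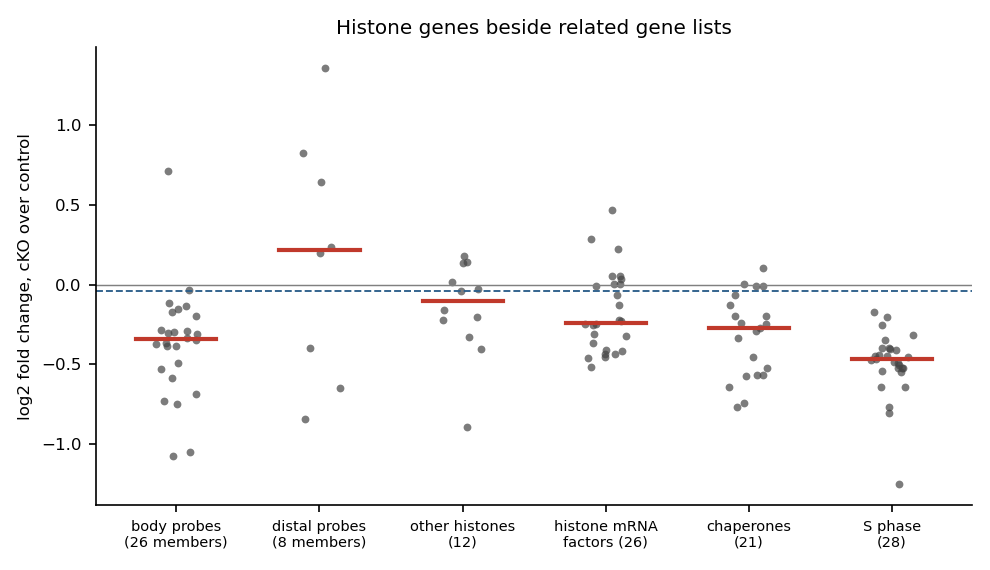
Log2 fold change (cKO over control) of single genes, as points, for members with body probes, members with distal probes and 4 related gene lists, with the median of each as a red bar and the median of all 22281 tested probes as a dashed line. The medians are -0.34 for body probes, 0.22 for distal probes, -0.10 for other histones, -0.24 for histone mRNA factors, -0.27 for chaperones and -0.47 for S phase genes.

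Markers of the cells were checked on the same scale, with levels summed on the linear scale as multiples of each array's 75th percentile. Foxp3, Il2ra, Ctla4, Cd3e, Cd3d and Cd4 were well above background on all 6 arrays, and the list of 8 iTreg and CD4 T cell markers summed to 161 to 180 in cKO cells and 149 to 152 in controls. Most of this sum came from Cd3d. Of the 8 markers, 5 had a log2 fold change above 0 and 3 below it, compared with 54.4% of all tested probes below 0. The median was 0.41. Ctla4 gave 0.94 (SE 0.24), Cd4 0.67 (SE 0.22), Ikzf2 0.51 (SE 0.53), Cd28 0.43 (SE 0.17) and Cd3d 0.39 (SE 0.15). Below 0 were Foxp3 at -0.61 (SE 0.22), Il2ra at -0.55 (SE 0.33) and Cd3e at -0.27 (SE 0.09). None passed an adjusted p of 0.05. For the other lists, the ranges in brackets are sums over every marker of the list, including those too dim to test. Both CD8 T cell markers were tested (4.06 to 4.57 in cKO cells, 4.62 to 5.82 in controls). Of B cell markers 1 of 4 was tested (0.561 to 1.32, controls 0.385 to 0.645), of myeloid markers 1 of 4 (0.138 to 0.148, controls 0.1 to 0.296), of erythroid markers 1 of 3 (0.489 to 1.09, controls 0.193 to 0.390) and of epithelial markers 2 of 3 (0.488 to 0.680, controls 0.365 to 0.449). Their part in the histone values was not tested.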

How the data were processed

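Gene expression was measured on 6 arrays, 1 for each of 3 cKO and 3 control mice. The authors deposited each spot's intensity on a linear scale, with the background subtracted by Agilent Feature Extraction (version 10.7.3.1 per the file headers, 9.1 in the submitters' processing notes). The authors' own table of log2 values, with nearly equal distributions on all arrays, was used as an alternative. Its 6 columns were all assigned, and 0 were left without a sample.

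Outlier spots (123 to 140 per array) were dropped, the log2 processed signals of a probe averaged, and each array's 75th percentile subtracted. Groups were compared with limma 3.58.1 in R 4.3.3 over the 22281 probes that passed the filter on dim signal (3 or more arrays well above background), with Benjamini-Hochberg adjustment. The steps were tested on simulated data. Figures used matplotlib 3.10.9 and tables pandas 2.3.3 and numpy 2.4.6, under Python 3.11.15. The number of arrays limits the precision.

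The members and gene lists were chosen with earlier results of these data known. Of each histone type, the 3 brightest members and the largest log2 fold change in each direction were named, with members whose probes disagreed in sign, Hist1h1c, Hist1h2bc and Hist2h2be. Hist2h2aa1, Hist1h1a, Hist1h2ae, Hist1h2ai, Hist1h2ak, Hist1h2ao, Hist1h2ba, Hist1h4a, Hist2h2bb and Hist3h2ba were named after their values were seen. Related lists covered histones outside the clusters, histone mRNA factors, chaperones and S phase genes, and Slbp stands in 2 of them. No probe is named for miR-31, so its deletion was not checked here. Labels and methods differ in the IL-2 dose and the RNA kit, and the labels' were used. Each mouse is a separate animal and culture.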

Additional observations from a re-analysis of the deposited data

How the results depend on the processing

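A log2 fold change below 0 was found for 28 of 34 members under every alternative except normexp with the 75th percentile (25 of 34), no filter on dim probes (29 of 38) and probes above background on all arrays (27 of 32). The number of members past an adjusted p of 0.05, 0 in the report, was 2 with normexp and quantile normalization, with probes above background on all arrays and with trend and robust fitting (Hist2h2aa1 and Hist3h2a each time), and 7 with array weights. The number of members lower at an unadjusted p was 5 with normexp and the 75th percentile, in place of 16. It was 8 with the median as the scaling point, with no filter on dim probes and with the replicate block. With the slide as a term it was 4. Among all tested probes, 542, 1717, 2297, 1636 and 599 were lower under these settings in that order, in place of 2511. The number of members higher was 1 with the slide as a term, in place of 2. Among all tested probes, 1040 were higher with that term, in place of 2607. Over the whole array, 115, 0, 79, 0, 175, 0, 98, 1824, 0, 0 and 0 probes passed with normexp and quantile normalization, normexp and the 75th percentile, the median as the scaling point, no filter, all arrays above background, the methods' t-test, trend and robust fitting, array weights, the slide as a term, the replicate block and within slide 1, in place of 29. The methods' t-test called 2103 probes higher and 1941 lower at the 0.05 threshold, before adjustment.

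Normexp with the 75th percentile moved the median of all tested probes from -0.04 to 0.10. Under it the median of the members was -0.53, of H1 -0.69, of H2A -0.55, of H2B 0.15 (reversed), of H3 -0.62, of H4 -0.51 and of body probes -0.58, with 25 of 26 body probes below 0 and all 8 distal probes above it. The H1 median was -0.22 with array weights, and the H2A median was -0.29 with normexp and quantile normalization. Hist1h1t reversed to -0.12 with array weights and Hist1h2bp to 0.21 with normexp and the 75th percentile. The cause of these shifts was not tested.

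Leaving out each array in turn gave 0 members past an adjusted p each time and 0 to 1 probes over the array. At an unadjusted p, 5 to 20 members were lower and 1 to 3 higher. The 20 lower and the 3 higher came without cKO replicate 2, where 2165 of all tested probes were lower and 2232 higher. The medians ran from -0.43 to -0.23 over the members, -0.62 to -0.25 for H1, -0.43 to -0.29 for H2A, -0.44 to -0.15 for H2B, -0.47 to -0.24 for H3, -0.30 to -0.16 for H4, -0.45 to -0.24 for body probes and 0.08 to 0.37 for distal probes. The lowest count of lower members, 5, came without control replicate 2. It was 8 without control replicate 1 and 7 without control replicate 3. Among all tested probes, 1239 were lower without control replicate 2, 1818 without control replicate 1 and 1157 without control replicate 3. Without control replicate 1 or 2, 1 member was higher. Of the 458 recomputed values of the named members, 449 kept their direction and side of the threshold, 7 passed it and 2 reversed. Arrays with the same replicate number did not deviate together (correlations of -0.14, 0.01 and -0.19), so the block, under which 8 members were lower, is given here alone. The comparison within slide 1 and the division into body and distal probes were chosen after seeing the data. Brightness limits the 4 dim members, for which no difference could be measured.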
